A study of Homo sapiens with 24 samples.

Results

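The comparison was between breast cancer stem-like cells (BCSCs) and non-BCSCs sorted from HCC70, an established human triple-negative breast cancer (TNBC) cell line, and addressed which genes differ in RNA level between the sorted fractions. It took in every sample labelled HCC70, which were 6 of the 24 samples of the series, with 3 replicates of each fraction. Both fractions were wild-type cells of the same line. BCSCs had been sorted by flow cytometry as CD24-CD44+ and ALDH+ cells, and non-BCSCs as cells that lacked both phenotypes. Poly-A RNA of each sorted sample was sequenced as 1 stranded, paired-end library. HCC70 carries the label batch 2 and the other sorted line, Hs578T, batch 1, so that line and batch cannot be told apart. The replicates are labelled as biological, but no source used here says whether they came from separate cultures or sorts, and p-values measure only the spread between these libraries. All genes of the HCC70 table were used. Of the 18248 genes listed, 13218 averaged 1 TPM or more over the 6 libraries and were tested, of which 11688 were protein-coding. TPM values are reads divided by gene length and scaled to 1000000 per library.

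BCSCs are defined by surface and enzyme markers rather than by a transcript signature. CD24 is a mucin-like adhesion molecule, CD44 is the hyaluronan receptor, and the ALDH stain reports the activity of aldehyde dehydrogenases, mainly of the ALDH1 family. A sorted fraction of a growing culture holds cells in every phase of the cell cycle, and the genes of G2 phase and mitosis are transcribed late in the cycle, largely through a shared promoter element, the cell cycle genes homology region (CHR), and CCAAT boxes. Values below are differences of BCSCs minus non-BCSCs on the log2(TPM + 1) scale, which understates the change of low genes. In bulk RNA, a larger share of cells that express a gene and more RNA of that gene per cell cannot be told apart.

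The recovered depth was 24876386 to 31820417 reads in non-BCSCs and 28316211 to 33832813 reads in BCSCs. The library non-BCSC 1 stood apart. On the first principal component (44.15% of the variance) it lay at -26.2, against -4.73 and -3.78 for the other non-BCSC libraries and 10.4 to 12.8 for the BCSC libraries. Its level also moved with the GC content of transcripts, as the plot of level by GC content shows. Its median deviation from the mean of the 6 libraries was 0.13 in the bin of genes with the lowest GC content, -0.13 between 51.31% and 54.52% GC, and 0.14 in the bin with the highest. RPPH1 and RMRP, the RNA parts of RNase P and RNase MRP, together took 11.6% to 13.1% of the TPM in non-BCSCs and 9.38% to 10.4% in BCSCs of a total that is fixed at 1000000 TPM. The part of non-BCSC 1 and of GC content in each result was not tested beyond the values given beside it.

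**Figure D1:**
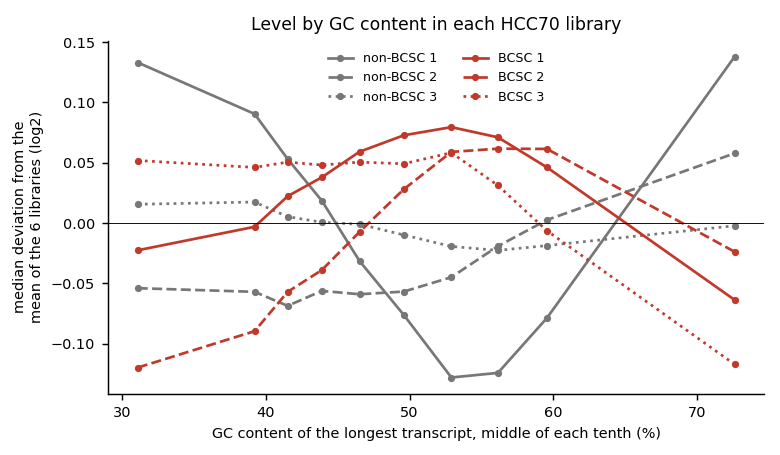
Median deviation of each HCC70 library from the mean of the 6 libraries (y axis, log2 of TPM + 1) in 10 equal bins of the tested genes ordered by GC content of the longest transcript (x axis, %). The non-BCSC 1 line runs from 0.13 at the lowest GC content through -0.13 at 51.31% to 54.52% back to 0.14 at the highest, a wider swing than that of any other library.

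The sort markers were checked first. CD24 had 912, 828 and 831 TPM in non-BCSCs and 685, 667 and 725 TPM in BCSCs. The groups did not overlap, and every BCSC library lay lower, but the difference did not pass the main test (log2 fold change -0.31, SE 0.07, limma adjusted p = 0.0543). CD24 was called lower by limma voom on the recovered reads (adjusted p = 0.00643), with the GC trend of each library removed (log2 fold change -0.36, adjusted p = 0.0233) and among genes that averaged 10 TPM or more (adjusted p = 0.0391). CD44 had 105, 98.7 and 106 TPM in non-BCSCs and 106, 95.5 and 118 TPM in BCSCs, with overlapping groups (log2 fold change 0.04, SE 0.08, limma adjusted p = 0.788). Of the aldehyde dehydrogenases that the ALDH stain can report, ALDH1A1 was the most abundant, with 337, 327 and 328 TPM in non-BCSCs and 359, 357 and 370.1 TPM in BCSCs. All 3 BCSC libraries lay above the non-BCSC libraries by a difference that did not pass (log2 fold change 0.13, SE 0.05, limma adjusted p = 0.164). ALDH1A3 had 84.6, 85.4 and 91.8 TPM in non-BCSCs and 105, 99.9 and 90.6 TPM in BCSCs and overlapped between the groups (log2 fold change 0.17, SE 0.07, limma adjusted p = 0.179). ALDH2 overlapped as well (log2 fold change 0.06), and ALDH1A2 and ALDH3A1 stayed under 1 TPM in every library. In all, 0 of the 5 tested sort markers and 0 of 11 other aldehyde dehydrogenases were called by the main test, the latter led in level by ALDH3A2 (log2 fold change -0.09) and ALDH18A1 (0.11). Over all genes tested the main test called 2.28% higher and 0.552% lower.

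Most defining markers of other cell types were near 0. The exceptions were CD14 and CD68 and, at lower levels, COL1A1 (6.26 to 7.01 TPM), PDGFRA (2.72 to 3.72 TPM) and CSF1R (at most 1.21 TPM). PTPRC, the pan-leukocyte antigen CD45, reached at most 0.025 TPM and CD3E 0.301 TPM. The 11 leukocyte markers listed summed to 144 to 165 TPM in non-BCSCs and 150 to 158 TPM in BCSCs, mostly from CD14 (84.0 to 119 TPM) and CD68. CD68, a lysosomal glycoprotein, had 39.1, 49.5 and 47.6 TPM in non-BCSCs and 64.4, 65.7 and 59.9 TPM in BCSCs and rose (log2 fold change 0.48, SE 0.09, limma adjusted p = 0.0426), while CD14 was not called (log2 fold change -0.30). Exons of other genes overlap 1765 bases of CD68 on the same strand in the reference annotation. The 7 fibroblast markers summed to 9.99 to 10.6 TPM in non-BCSCs and 9.41 to 9.80 TPM in BCSCs, of which COL1A1 (log2 fold change -0.01) and PDGFRA (-0.22) were tested and not called, while COL3A1 stayed at or under 0.014 TPM. All 5 endothelial markers stayed under 1 TPM in every library, with PECAM1 at most at 0.254 and VWF at 0.197 TPM. Epithelial markers were high in both fractions. EPCAM had 182 to 198 TPM, and the keratin KRT17, chosen after its values were seen, averaged 578 TPM in the non-BCSC libraries against 543 TPM in the BCSC libraries.

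Across all genes tested, 301 were higher in BCSCs and 73 lower at an adjusted p under 0.05 by limma, which is 2.28% and 0.552% of 13218 genes. The differences were small. The median of all genes was 0.02, and of the called protein-coding genes outside the cell cycle lists, 24 rises and 32 falls exceeded 0.5 on the log2 scale and 1 fall exceeded 1. These other protein-coding genes, on which the rest of the text puts its weight, gave 188 rises and 54 falls among 11417 tested (1.65% and 0.473%). Genes that are not protein-coding gave 26 rises and 17 falls among 1530, of which 16 and 13 had under 100 reads in some library, and are not described further. The 3 BCSC values all lay above the 3 non-BCSC values in 20.9% of the genes tested and all below in 10.1%.

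The size of these counts depended on single libraries. The 374 calls became 32, 96 and 79 without BCSC 1, 2 and 3, and 247, 127 and 193 without non-BCSC 1, 2 and 3. The 188 rises of other protein-coding genes became 2, 16 and 11 without the BCSC libraries in turn and 85, 41 and 49 without the non-BCSC libraries, and the 54 falls became 6, 12 and 13, and 50, 14 and 51. Of the 100 named genes called, 17, 32 and 30 kept their call without BCSC 1, 2 and 3, and 71, 43 and 52 without non-BCSC 1, 2 and 3. Genes described below that lost it without non-BCSC 1 were ASF1B, SNAI1, HBEGF, DDB2, KIT, ERBB3, CDH3, NDUFB7, RPL23A, SLC2A1, ANKRD37, DDIT4, SYVN1, DUSP1, OAS3, STAT2, HLA-E, CARS1, TUBA4A, DNMT3B, FANCI, IFT122, H4C12, PRLR, MVD, FASN, BCL7C and ANKRD30BL. With the GC trend of each library removed, rises described below that lost their call included ASF1B, DDB2, CDH3, RPL23A, SLC2A1, SYVN1 and HSPA1A. DUSP1, OAS3, STAT2, HLA-E, LCN2 and CARS1 lost it too, as did the falls ANKRD30BL, MBD3 and H4C11. The split of calls also moved. Rises made up 80.5% of calls in the main test, 68.4% with the GC trend of each library removed, and 51.6% (328 rises and 308 falls) by limma voom on the recovered reads.

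**Figure D2:**
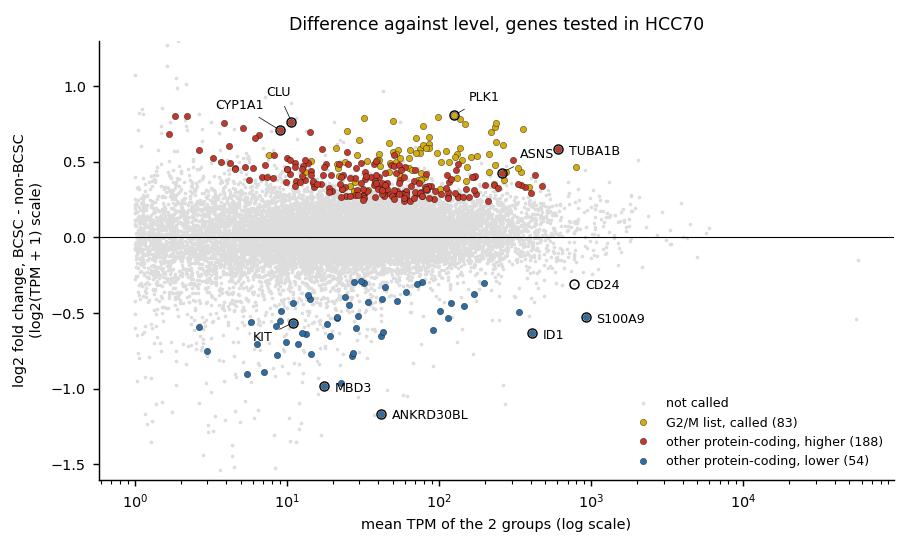
Log2 fold change, BCSCs minus non-BCSCs (y axis, log2(TPM + 1) scale), against the mean TPM of the 2 groups (x axis, log scale) for the genes tested in HCC70; 14 genes lie beyond the y axis. The 83 called G2/M genes (gold) and 188 other protein-coding genes higher in BCSCs (red) lie under 0.85, while the 54 lower ones (blue) reach -1.16 at ANKRD30BL.

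Genes of G2 phase and mitosis rose as a group. Of 133 tested members of the list, 83 rose and 0 fell, against 2.28% and 0.552% of all genes tested, and 130 had a value above 0. The median was 0.43 and the range -0.21 to 0.81, against a median of 0.02 for all genes. The summed level of the list was 12207, 11886 and 12387 TPM in non-BCSCs and 16495, 16038 and 16644 TPM in BCSCs. These are groups that did not overlap, and in 111 of the 133 genes the 3 BCSC values also all lay higher, against 20.9% of all genes. Without BCSC 1, 2 and 3 in turn, 19, 53 and 49 of the list were called, and without non-BCSC 1, 81. Of 59 S phase genes tested, 1 rose and 0 fell, the median was -0.02, and 10 lay all higher and 10 all lower. The gene that rose was ASF1B, a histone chaperone (log2 fold change 0.30, SE 0.06, limma adjusted p = 0.0426).

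PLK1, the kinase that drives mitotic entry and spindle assembly (chr16:23677656-23690367), had 87.2, 97 and 90.9 TPM in non-BCSCs and 161, 164 and 159 TPM in BCSCs. All BCSC libraries lay above the non-BCSC libraries (log2 fold change 0.81, SE 0.06, limma adjusted p = 0.00157). KIF20A, the kinesin-6 motor of the central spindle (chr5:138178719-138187723), had 68.7, 74 and 71.4 TPM in non-BCSCs and 123, 123 and 129 TPM in BCSCs. Again the groups did not overlap (log2 fold change 0.80, SE 0.05, limma adjusted p = 0.00157). CCNB1 encodes cyclin B1, the regulatory partner of CDK1, and lies at chr5:69167135-69178245. Its level was 104, 100.04 and 97 TPM in non-BCSCs and 171, 166 and 183 TPM in BCSCs, with every BCSC library the higher (log2 fold change 0.78, SE 0.06, limma adjusted p = 0.00187). The other leading members were TROAP, a spindle-associated protein (log2 fold change 0.79), AURKA, the centrosomal kinase Aurora A (0.77), and KPNA2, the nuclear importer importin alpha-1 (0.75). Fold changes of PLK1 stayed at 0.77 to 0.85 when each library was left out in turn, and those of KIF20A at 0.77 to 0.82.

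Further mitotic genes named by the study, or chosen after their values were seen, rose as well. NEK2, a centrosome-splitting kinase, had 65.3, 57.8 and 63 TPM in non-BCSCs and 98.2, 92.6 and 94.7 TPM in BCSCs (log2 fold change 0.61, SE 0.06, limma adjusted p = 0.00566). HMMR, a spindle-assembly factor and hyaluronan-binding protein, had 48.3, 42.7 and 45.6 TPM in non-BCSCs and 64.1, 63.1 and 70.4 TPM in BCSCs (log2 fold change 0.52, SE 0.07, limma adjusted p = 0.012). The non-BCSC and BCSC values of both genes did not overlap. CDC20, the activator of the anaphase-promoting complex, rose from 176 ± 13.2 to 292 ± 4.95 TPM, TOP2A, the topoisomerase of chromosome condensation, from 208 ± 11 to 318 ± 15.2 TPM, and the proliferation marker MKI67 from 109 ± 7.42 to 165 ± 11.9 TPM (means ± SD, n = 3 libraries each). GDF15, a stress-induced cytokine that the study also names, had 0.993, 1.11 and 0.973 TPM in non-BCSCs and 1.89, 1.64 and 1.44 TPM in BCSCs, resting on as few as 24 reads, and was not called (log2 fold change 0.39, limma adjusted p = 0.108). H2BC1 and MVB12B, also named by the study, averaged under 1 TPM and were not tested.

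BRD8, a bromodomain protein of the TIP60 complex that was chosen after its values were seen, lies beside KIF20A on the opposite strand, and 132 of its exon bases overlap KIF20A in the reference annotation. Its level was 17.6, 18.3 and 18.5 TPM in non-BCSCs and 26.3, 25.5 and 25.7 TPM in BCSCs, higher in every BCSC library (log2 fold change 0.49, SE 0.05, limma adjusted p = 0.0075). Whether the counting used the strand is not given in the sources used here, so the part of KIF20A reads in this value was not tested.

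**Figure D3:**
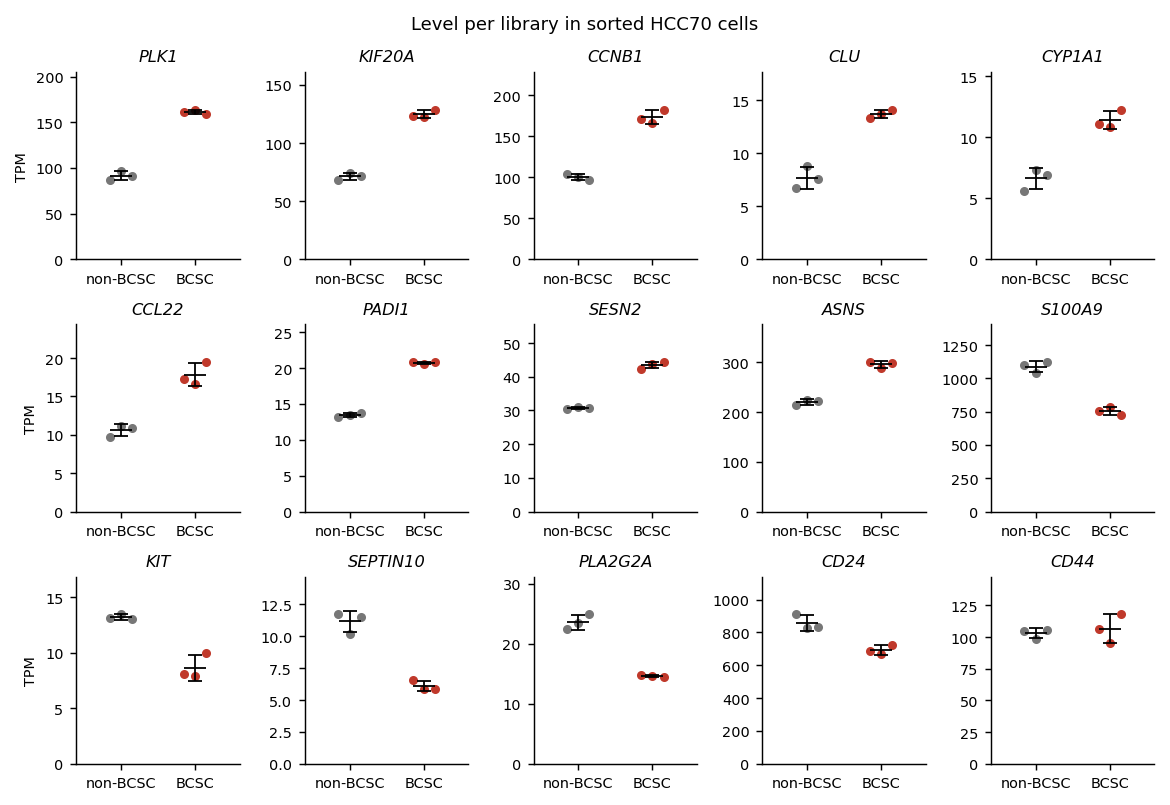
TPM in each HCC70 library (points) for 15 genes, with the mean and SD of the 3 libraries of each fraction (bars); each y axis starts at 0. PLK1, KIF20A and CCNB1 lie higher in all 3 BCSC libraries, S100A9, KIT, SEPTIN10 and PLA2G2A lie lower in all 3, and the CD44 values overlap.

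Promoters of these genes are shown because the list shares late cell cycle expression. The sequences are the 120 bases before the annotated start in RefSeq on GRCh38.p14, 5′ to 3′ on the strand of the gene, with capitals marking CCAAT boxes (CCAAT or ATTGG on the other strand) and CHR elements (TTTGAA or TTCGAA, both strands searched). PLK1 lies at chr16:23678769-23678888 (plus strand), HMMR at chr5:163460512-163460631 (plus), KIF20A at chr5:138178992-138179111 (plus) and CCNB1 at chr5:69167030-69167149 (plus).
PLK1: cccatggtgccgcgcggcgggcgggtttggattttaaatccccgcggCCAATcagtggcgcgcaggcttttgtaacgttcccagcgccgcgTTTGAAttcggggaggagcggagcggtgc
HMMR: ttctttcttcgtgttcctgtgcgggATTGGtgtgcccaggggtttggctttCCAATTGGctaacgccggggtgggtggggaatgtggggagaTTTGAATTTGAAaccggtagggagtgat
KIF20A: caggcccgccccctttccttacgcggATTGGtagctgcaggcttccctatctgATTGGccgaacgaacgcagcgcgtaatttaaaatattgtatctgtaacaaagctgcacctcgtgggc
CCNB1: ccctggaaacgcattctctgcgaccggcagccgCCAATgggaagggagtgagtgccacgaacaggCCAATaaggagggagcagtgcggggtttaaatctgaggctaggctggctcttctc
In PLK1 the CHR letters begin 29 bases before the start and the CCAAT box 73 bases before it. HMMR holds adjoining CHR letters 28 and 22 bases before the start and CCAAT boxes at 95, 69 and 66, the latter pair overlapping in opposite directions. KIF20A holds CCAAT boxes at 94 and 67 and CCNB1 at 87 and 55. Both lack TTTGAA and TTCGAA on either strand in this window, but other forms of the CHR were not searched.

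Over the whole window of 250 bases before to 50 after the start, RefSeq gave a promoter for 71 of the 83 G2/M genes that rose. Of these 56 (78.9%) held the CHR letters, against 26 of 42 (61.9%) G2/M genes that were not called, 3 of 48 (6.25%) S phase genes and 1147 of 9919 (11.6%) tested genes with a promoter. Among all 27305 promoters of the table the share was 16.6%. CHR letters and a CCAAT box stood together in 48 (67.6%) of the G2/M genes that rose and in 500 (5.04%) of the tested genes. Rises of other protein-coding genes held the CHR letters in 19 of 142 promoters (13.4%) and falls in 3 of 40 (7.5%). These matches describe only the letters searched in a window, so other forms of the CHR are not counted. They are no measure of binding.

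Outside the cell cycle lists, 166 of the rises were well measured, with separated groups, an average of 10 TPM or more in one fraction and 100 reads or more in each library. The largest was that of CLU, the secreted chaperone clusterin (chr8:27596917-27614700), which had 6.73, 8.82 and 7.54 TPM in non-BCSCs and 13.3, 13.7 and 14.1 TPM in BCSCs. All BCSC values lay above the non-BCSC values (log2 fold change 0.77, SE 0.09, limma adjusted p = 0.00966). CYP1A1, the cytochrome P450 that serves as the classic target of the aryl hydrocarbon receptor (chr15:74719542-74725536), had 5.64, 7.31 and 6.96 TPM in non-BCSCs and 11.1, 10.9 and 12.3 TPM in BCSCs. It rose without overlap (log2 fold change 0.71, SE 0.10, limma adjusted p = 0.0165). The receptor gene AHR and the targets CYP1B1 and TIPARP, chosen after their values were seen, were not called. Further targets are not described here. Fold changes were 0.12 for AHR, 0.04 for CYP1B1 and 0.15 for TIPARP.

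CCL22, a chemokine that draws CCR4-bearing T cells (chr16:57358783-57366189), had 9.7, 11.1 and 10.9 TPM in non-BCSCs and 17.3, 16.7 and 19.5 TPM in BCSCs (log2 fold change 0.70, SE 0.08, limma adjusted p = 0.00855). PADI1, a peptidylarginine deiminase of keratinizing epithelium (chr1:17205128-17246007), had 13.2, 13.4 and 13.8 TPM in non-BCSCs and 20.8, 20.6 and 20.9 TPM in BCSCs. The BCSC values of both genes lay all above the non-BCSC values (for PADI1, log2 fold change 0.59, SE 0.06, limma adjusted p = 0.00484). Its neighbor PADI2, chosen after its values were seen, rose as well, from 40.6 ± 3.07 to 56.8 ± 1.06 TPM (log2 fold change 0.48, SE 0.07, limma adjusted p = 0.0145). PADI3 was under the limit of 1 TPM on average, at 0.81, 0.643 and 0.733 TPM in non-BCSCs and 1.37, 1.3 and 1.06 TPM in BCSCs, and was not tested.

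Transcription factors and signaling genes were among the leading rises. SNAI1, the EMT transcription factor Snail (chr20:49982980-49988886), had 7.04, 9.04 and 7.99 TPM in non-BCSCs and 12.3, 11.3 and 12.2 TPM in BCSCs. It rose (log2 fold change 0.52, SE 0.09, limma adjusted p = 0.0349) as the only called gene of 13 tested EMT and mesenchymal genes, whose median was 0.12. VIM, which encodes vimentin and was chosen after its value was seen, was not called (log2 fold change -0.20). OVOL1, a zinc-finger factor of epithelial differentiation, had 10.7, 10.7 and 10.6 TPM in non-BCSCs and 14.9, 16.3 and 15.7 TPM in BCSCs (log2 fold change 0.51, SE 0.06, limma adjusted p = 0.00927). HBEGF, a ligand of the EGF receptor (chr5:140332843-140346603), had 8.04, 8.66 and 8.55 TPM in non-BCSCs and 13.6, 12.6 and 11.3 TPM in BCSCs (log2 fold change 0.51, SE 0.08, limma adjusted p = 0.025). No value of SNAI1, OVOL1 or HBEGF overlapped between the fractions. Leaving out non-BCSC 1 ended the calls of SNAI1 (limma adjusted p = 0.0504) and HBEGF (0.0504).

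NEURL1B, a ubiquitin ligase of Notch ligands, rose from 20.01 ± 0.93 to 30.02 ± 0.546 TPM (0.56), ODF2, a component of centriolar appendages, from 40.9 ± 4 to 59.99 ± 1.75 TPM (0.55), TSPAN1, a tetraspanin, from 253 ± 18.1 to 359 ± 14.6 TPM (0.51), and GAS2L3, which links actin and microtubules, from 31.6 ± 1.21 to 45.4 ± 3.4 TPM (0.51, log2 fold changes). Chosen after their values were seen, the heat shock gene HSPA6 (0.49), the aminopeptidase gene ANPEP (0.49), the chitinase-like CHI3L1 (0.49), the cytokine-signaling inhibitor SOCS3 (0.49), the TEAD cofactor VGLL1 (0.45), the adhesion molecule CEACAM5 (0.45) and TXNIP, an inhibitor of thioredoxin (0.35), also rose with separated groups. The 188 rises had a median GC content of 52.4%, against 47.8% for all protein-coding genes. Of the 188, 135 were lowest in non-BCSC 1 among the non-BCSC libraries, as were 3936 of all 11688 protein-coding genes tested. Without that library 78 of the 188 were called, and with the GC trend removed 131.

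Tubulins, the subunits of microtubules, gave 5 rises and 0 falls among 14 tested, against 2.28% and 0.552% of all genes. The median was 0.27, and 3 members lay below 0. TUBA1C had 222, 294 and 298 TPM in non-BCSCs and 451, 465 and 414 TPM in BCSCs (log2 fold change 0.72, SE 0.12, limma adjusted p = 0.0252). TUBA1B, the most abundant, had 407, 523 and 525 TPM in non-BCSCs and 733, 775 and 662 TPM in BCSCs (log2 fold change 0.58, SE 0.11, limma adjusted p = 0.0425). The non-BCSC 1 value was the lowest in both genes, and the fold changes without it were 0.58 and 0.46. TUBB4B rose from 277 ± 16.6 to 382 ± 4.36 TPM, TUBB from 142 ± 12.6 to 187 ± 4.31 TPM and TUBA4A, chosen after its values were seen, from 98.7 ± 5.9 to 124 ± 7.36 TPM. Of the members not called, TUBB6 (log2 fold change -0.02) and TUBB3 (-0.19) were chosen after their values were seen. TUBA1C and TUBB4B are also on the G2/M list, and reads of near-identical tubulin genes may be split between them. In the reference annotation exons on the opposite strand overlap 1571 bases of TUBA1B and 1011 bases of TUBA1C.

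Genes of the amino acid stress response driven by ATF4 also rose in part. Of 29 tested, 7 rose and 0 fell, 28 had values above 0, and 25 had all 3 BCSC values above the non-BCSC values, against 2.28%, 0.552% and 20.9% of all genes. Their median was 0.29, and 0.22 with the GC trend removed. SESN2, an mTORC1 inhibitor (chr1:28259518-28282491), had 30.5, 31 and 30.8 TPM in non-BCSCs and 42.4, 43.7 and 44.4 TPM in BCSCs, with groups far apart for their spread (log2 fold change 0.49, SE 0.05, limma adjusted p = 0.00594). ASNS, asparagine synthetase (chr7:97851677-97872542), had 214, 224 and 222 TPM in non-BCSCs and 301, 288 and 299 TPM in BCSCs and did not overlap either (log2 fold change 0.43, SE 0.05, limma adjusted p = 0.00855). DDIT3, the factor CHOP, had 49.4, 46.5 and 53.3 TPM in non-BCSCs and 73.9, 63.9 and 69.8 TPM in BCSCs (log2 fold change 0.47, SE 0.07, limma adjusted p = 0.0246). DDIT4, an mTORC1 inhibitor on both this list and the hypoxia list, rose from 70.1 ± 5.34 to 94.2 ± 7.78 TPM. PCK2, NUPR1 and CARS1, which were chosen after their values were seen, also rose (log2 fold changes 0.41, 0.40 and 0.29). ATF4 itself had 403, 401 and 434 TPM in non-BCSCs and 538, 549 and 450.4 TPM in BCSCs. Its groups did not overlap but the difference did not pass (log2 fold change 0.31, SE 0.09, limma adjusted p = 0.0883). Without BCSC 1, 2 and 3 in turn 1, 3 and 2 members were called, and without non-BCSC 2 and 3, 2 and 3.

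The promoter of ASNS is shown because it holds the C/EBP-ATF response element (CARE) that ATF4 is known to bind, searched as TGATGNAA on both strands and marked in capitals. The sequence is the 120 bases before the RefSeq start on GRCh38.p14, chr7:97872409-97872528 on the minus strand, written 5′ to 3′ along the gene, and the element begins 68 bases before the start.
ASNS: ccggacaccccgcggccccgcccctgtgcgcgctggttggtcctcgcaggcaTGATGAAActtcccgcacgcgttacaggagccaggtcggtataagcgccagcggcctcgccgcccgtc
In the window of 250 bases before to 50 after the start, these letters were in 7 of 22 promoters (31.8%) of tested genes of the list, in 2 of the 6 (33.3%) that rose and had a promoter, and in 162 of 9919 (1.63%) tested genes.

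Other groups of stress and signaling genes held a few calls each. The list counts here and in the next paragraph stand beside 2.28% rises and 0.552% falls of all genes tested. Of 22 endoplasmic reticulum chaperone and unfolded protein genes 2 rose, HYOU1, a chaperone of the endoplasmic reticulum (from 147 ± 12.8 to 194 ± 6.9 TPM), and SYVN1, the ubiquitin ligase HRD1 (from 28.7 ± 0.84 to 34.9 ± 0.877 TPM), and the median was 0.13. Of 20 heat shock genes 2 rose, DNAJB1, an HSP40 cochaperone (from 366 ± 15.6 to 489 ± 32.9 TPM), and HSPA1A, the inducible HSP70 (from 67.3 ± 2.34 to 82.6 ± 3.2 TPM), with a median of 0.02. HSPA1A shares near-identical sequence with its neighbor and is uncertain for that reason. HSPA6, which rose (0.49), is not on the heat shock list. Of 20 hypoxia response genes 4 rose and 0 fell. These were ANKRD37 (from 4.28 to 6.29 TPM, from 39 reads upward), DDIT4, the growth-arrest gene NDRG1 (from 28.2 ± 0.298 to 37.8 ± 1.57 TPM) and the glucose transporter SLC2A1 (from 67.7 ± 2.65 to 83.8 ± 1.97 TPM). SLC2A1 was also the only call among 21 glycolysis genes.

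Of 10 EGF receptor family and ligand genes 2 rose, HBEGF and the receptor ERBB3 (from 102 ± 5.93 to 126 ± 1.14 TPM). EGFR, chosen after its values were seen, had a log2 fold change of 0.19 (limma adjusted p = 0.0782). Of 29 immediate early genes 1 rose, the MAP kinase phosphatase DUSP1 (from 28 ± 1.13 to 35.3 ± 1.88 TPM). The medians of these lists were 0.18 and 0.16. Of 40 interferon-stimulated genes OAS3 (from 54 ± 2.89 to 66.9 ± 2.14 TPM) and STAT2 (from 55 ± 1.34 to 66.3 ± 1.37 TPM) rose, and of 18 genes of MHC class I presentation HLA-E (from 34.5 ± 0.833 to 41.7 ± 1.03 TPM). The recovered gene lengths of HLA-E, HSPA1A and TUBB were 18634, 12145 and 19865 bases, where the exons of the reference cover 2922, 2404 and 4071, so that their TPM levels are low beside other genes while their ratios between fractions are not affected.

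Calls in both directions came from the list of NF-kB targets, chemokines and cytokines. S100A9, a calcium-binding alarmin (chr1:153357854-153361023), had 1101, 1041 and 1124 TPM in non-BCSCs and 758, 784 and 722 TPM in BCSCs. Its partner S100A8 had 190.1, 198 and 187 TPM in non-BCSCs and 147, 144 and 153 TPM in BCSCs, and S100A7, psoriasin, had 36.6, 35.5 and 30.7 TPM in non-BCSCs and 19.8, 20.5 and 18.2 TPM in BCSCs. All 3 neighbors on chromosome 1 were lower in every BCSC library. Log2 fold changes were -0.53 (SE 0.06), -0.37 (SE 0.05) and -0.78 (SE 0.08), with limma adjusted p of 0.00855, 0.0149 and 0.00594, and S100A7 rested on as few as 88 reads. Higher in BCSCs were the chemokine CX3CL1 (from 47.7 ± 3.54 to 61.5 ± 1.04 TPM) and, chosen after their values were seen, the iron-binding lipocalin LCN2 (from 420.4 ± 13.6 to 533 ± 18.7 TPM) and the chemokine CXCL16 (from 78.6 to 94.3 TPM). The list thus held 3 rises and 3 falls among 24 tested, against 2.28% and 0.552% of all genes, with a median of 0.06. The chemokine gene CCL22, which rose (0.70), is not on it.

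Among epithelial markers, KIT, the receptor of luminal progenitors (chr4:54657267-54740783), had 13.1, 13.5 and 13 TPM in non-BCSCs and 8.03, 7.87 and 9.998 TPM in BCSCs. The BCSC values all lay lower, BCSC 3 nearest to the non-BCSCs (log2 fold change -0.56, SE 0.09, limma adjusted p = 0.0272). Without non-BCSC 1 the limma adjusted p was 0.0525. KRT6B, a keratin of basal and stressed epithelium, had 354, 406 and 412 TPM in non-BCSCs and 270.1, 288 and 271 TPM in BCSCs and fell without overlap (log2 fold change -0.49, SE 0.07, limma adjusted p = 0.0174). Rising members included ERBB3 among 20 luminal markers and CDH3, which encodes P-cadherin (from 307 ± 22 to 389 ± 12 TPM), among 24 basal and myoepithelial markers. Medians of the luminal and basal lists were 0.00 and 0.02.

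Falls outside the cell cycle lists were fewer and some were larger. The 54 genes had a median of -0.54, a median GC content of 61.2% against 47.8% for all protein-coding genes, and 29 had over 60% GC. Of the 54, 40 were highest in non-BCSC 1 among the non-BCSC libraries, as were 5284 of all 11688 protein-coding genes tested. Without that library 31 of the 54 were called, and with the GC trend removed 45. Of the 29 with over 60% GC, 25 were highest in non-BCSC 1 and 18 were called without it. Of the other 25, 15 were highest in it and 13 were called without it.

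Falls at a GC content of at most 60% included genes with tight values. SEPTIN10, a cytoskeletal GTPase (chr2:109542799-109614143), had 11.7, 10.2 and 11.5 TPM in non-BCSCs and 6.56, 5.87 and 5.89 TPM in BCSCs (log2 fold change -0.77, SE 0.08, limma adjusted p = 0.006). PLA2G2A, a secreted phospholipase A2 (chr1:19975431-19980416), had 22.5, 23.4 and 25 TPM in non-BCSCs and 14.8, 14.6 and 14.5 TPM in BCSCs (log2 fold change -0.65, SE 0.06, limma adjusted p = 0.00484). ATP13A5, a P5-type ATPase, had 16.3, 16.3 and 16.6 TPM in non-BCSCs and 10.5, 9.69 and 10.2 TPM in BCSCs (log2 fold change -0.64, SE 0.06, limma adjusted p = 0.00546). In these 3 genes the fractions did not overlap, and each was called with non-BCSC 1 left out (limma adjusted p of 0.0157, 0.00923 and 0.0126). SEMA3C, a secreted semaphorin (chr7:80742538-80922359), had 53.9, 50.6 and 51.9 TPM in non-BCSCs and 34.3, 31.2 and 35.1 TPM in BCSCs (log2 fold change -0.62, SE 0.06, limma adjusted p = 0.00566). CA2, carbonic anhydrase 2, fell from 15.4 ± 0.621 to 9.6 ± 0.586 TPM (log2 fold change -0.63). ID1, an inhibitor of helix-loop-helix factors and target of BMP signaling (chr20:31605283-31606515), had 544, 455 and 485 TPM in non-BCSCs and 338, 344 and 277 TPM in BCSCs. It was the most abundant of the leading falls, and its groups did not overlap (log2 fold change -0.63, SE 0.10, limma adjusted p = 0.0249). Chosen after their values were seen, the Wnt ligand WNT11 (-0.36), the chromatin remodeler SMARCA1 (-0.42) and the prolactin receptor PRLR (-0.43) fell as well.

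The largest fall was that of ANKRD30BL (chr2:132147591-132257969), with 74.6, 58.9 and 40.7 TPM in non-BCSCs and 32.1, 23.7 and 19.5 TPM in BCSCs. The values spread widely within each fraction, and the call (log2 fold change -1.16, SE 0.23, limma adjusted p = 0.0463) was lost without non-BCSC 1 (limma adjusted p = 0.0777) and with the GC trend removed (0.0578). MBD3, a subunit of the NuRD complex, had 33.5, 20.6 and 17.6 TPM in non-BCSCs and 11.6, 10.9 and 10.9 TPM in BCSCs, with non-BCSC 1 far above the others. Its log2 fold change was -0.98 with that library and -0.72 without it (limma adjusted p of 0.0477 and 0.0148), and 0.0533 was the adjusted p with the GC trend removed. MCRIP2 (log2 fold change -0.96), the zinc finger gene ZNF524 (-0.77), RHPN1 (-0.69) and the collagen gene COL18A1 (-0.65) had over 60% GC and kept their calls without non-BCSC 1. Their fold changes were then -0.80, -0.73, -0.52 and -0.50.

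Single falls also came from metabolic and chromatin lists, beside 2.28% rises and 0.552% falls of all genes tested. Nuclear genes of oxidative phosphorylation (OXPHOS) gave 0 rises and 2 falls among 77, ATP5F1D of ATP synthase (from 14.9 ± 1.1 to 8.73 ± 0.905 TPM, from 85 reads upward) and NDUFB7 of complex I (from 110.1 ± 16.9 to 71.4 ± 8.61 TPM, limma adjusted p = 0.0595 without non-BCSC 1, where it was highest), with a median of -0.04 and 33 values above 0. The 78 ribosomal protein genes gave the rise of RPL23A (0.24) and the fall of RPS28 (-0.76, from 76 reads upward), whose reads can be shared with pseudogenes and overlapping genes. MVD was the call among 25 cholesterol synthesis genes (from 118 ± 9.82 to 84.3 ± 9.86 TPM) and FASN among 16 fatty acid synthesis genes (from 137 ± 20.6 to 93.6 ± 7.13 TPM). Both were highest in non-BCSC 1, and without it the limma adjusted p was 0.08 and 0.0504. BCL7C was the call among 24 SWI/SNF subunits (from 137 ± 10.7 to 102 ± 6.77 TPM, limma adjusted p = 0.0542 without non-BCSC 1). Of 38 genes of DNA methylation, NuRD and Polycomb, DNMT3B rose (from 6.24 ± 0.27 to 8.55 ± 0.132 TPM) and MBD3 fell. Of 45 histone genes H4C11 (-0.61) and H4C12 (-0.58), which encode the same protein, fell, and without non-BCSC 1 the limma adjusted p was 0.0445 and 0.0707.

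**Figure D4:**
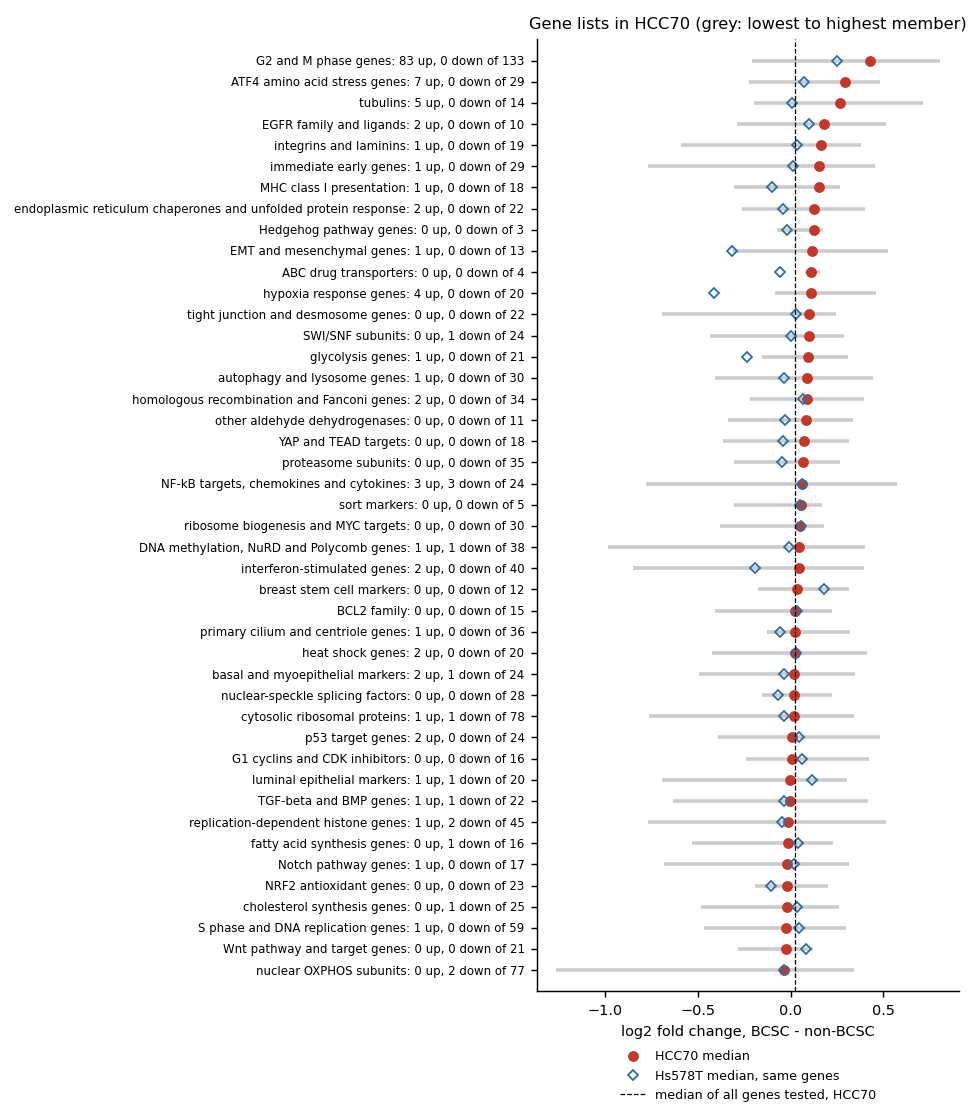
Median log2 fold change of each gene list with at least 3 tested members in HCC70 (red) and of the same genes in Hs578T (blue), with the lowest to highest member in HCC70 (grey) and the median of all genes tested (dashed, 0.02); labels give the members called up and down. The G2/M list (0.43), the ATF4 list (0.29) and tubulins (0.27) lie farthest to the right.

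Lists of signaling pathways tied to BCSCs in other settings held few calls, beside 2.28% rises and 0.552% falls of all genes tested. In the Notch list 1 of 17 rose, the receptor NOTCH2 (from 135 ± 2.34 to 168 ± 3 TPM, log2 fold change 0.32, SE 0.05, limma adjusted p = 0.0194). In the Wnt list 0 of 21 were called, and the most abundant members CTNNB1 and MYC had log2 fold changes of 0.03 and 0.12. The lists do not hold every pathway gene. NEURL1B, which rose (0.56), is not among the tested calls of the Notch list, nor WNT11, which fell (-0.36), among those of the Wnt list. Of the Hedgehog genes only 3 were tested, 0 of them called, with CDON at 0.17 and GLI3 at -0.07. TGF-beta and BMP genes gave the rise of LTBP1, which tethers latent TGF-beta (from 33.1 ± 1.99 to 44.5 ± 1.17 TPM), and the fall of ID1 among 22. Of 18 YAP and TEAD targets 0 were called, with IGFBP3 at 0.07 and MYOF at 0.14.

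Stem cell markers gave no call, beside 2.28% rises and 0.552% falls of all genes tested. Of 20 listed, 12 were tested and 0 called, with a median of 0.03. At those shares a list of this size holds few calls. ITGB1 (log2 fold change 0.04) and ALCAM (0.02) were the most abundant. PROM1, which encodes CD133, had 226, 224 and 227 TPM in non-BCSCs and 242, 233 and 242 TPM in BCSCs. KLF4 had 33.3, 27.8 and 27.4 TPM in non-BCSCs and 39.4, 36.2 and 35.0 TPM in BCSCs. ITGA6 had 31.2, 30.0 and 32.1 TPM in non-BCSCs and 33.9, 33.9 and 33.5 TPM in BCSCs. In these 3 of the 12 genes all BCSC values lay above the non-BCSC values, against 20.9% of all genes, and 0 lay all below. POU5F1 reached at most 0.644 TPM and SOX2 0.093 TPM, too low to test. Of 4 ABC drug transporters tested 0 were called, led by ABCC5 (0.16) and ABCC3 (0.08), and ABCG2 reached at most 0.021 TPM.

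Further lists gave 0 to 2 calls each, beside 2.28% rises and 0.552% falls of all genes tested. Of 24 p53 targets SESN2 and DDB2 rose (from 38.9 ± 2.11 to 48.2 ± 1.75 TPM), while of 16 G1 cyclins and CDK inhibitors 0 were called, with CDKN2A at -0.24. Of 34 homologous recombination and Fanconi genes FANCD2 (0.31) and FANCI (0.27) rose. IFT122 rose among 36 cilium and centriole genes (0.32), a list that does not hold ODF2, which rose (0.55). Calls numbered 0 among 30 ribosome biogenesis and MYC target genes (NCL 0.06, NPM1 -0.16), 35 proteasome subunits (PSMB4 0.22, PSMD2 0.21) and 23 NRF2 antioxidant genes (FTL 0.17, FTH1 0.09). They also numbered 0 among 15 BCL2 family genes (MCL1 0.04, BAX -0.01), 22 tight junction and desmosome genes (DSP 0.21, CLDN4 0.10) and 28 nuclear-speckle splicing factors (HNRNPA2B1 0.07, HNRNPH1 0.02). For these lists without calls, the values in brackets are log2 fold changes of the most abundant members. By this test the 2111 rises and 1023 falls at an unadjusted p under 0.05 over all genes outnumbered the calls.

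HCC70 differed from the other sorted line, Hs578T, in many of these genes. The interaction of fraction and line was tested by limma over the 11668 genes with at least 1 TPM in both. The log2 fold change was more positive in HCC70 than in Hs578T for 656 genes (5.62%) and more negative for 174 (1.49%), which gives the sign of the difference and not which line changed more. With each line scaled by the median of ratios the counts were 403 and 333, so that the split between directions depends on the scaling. In Hs578T itself 386 genes rose (2.9%) and 567 fell (4.26%). Without HCC70 BCSC 1, 3 or non-BCSC 1 the 830 interaction calls became 321, 545 and 464, and without Hs578T BCSC 1 or 2 they became 322 and 348. Without Hs578T non-BCSC 1, 2 or 3 they became 440, 291 and 495.

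G2/M genes rose in both lines. In Hs578T 72 of the list rose and 0 fell, with a median of 0.25, and the interaction was past the threshold for 26 of 132, all with the more positive value in HCC70. PLK1 had a log2 fold change of 0.81 in HCC70 and 0.41 in Hs578T (limma interaction adjusted p = 0.00618), while NEK2 had 0.61 and 0.47 (adjusted p = 0.254). The ATF4 list had a median of 0.29 against 0.07 in Hs578T, where 4 members rose and 2 fell, and 9 of 29 had a more positive value in HCC70. Tubulins had medians of 0.27 and 0.01, and 6 of 13 had a more positive value in HCC70.

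Hypoxia genes differed between the lines. Of 20 hypoxia genes 0 rose and 15 fell in Hs578T, with a median of -0.41 against 0.11 in HCC70, and for 12 the interaction was past the threshold with the more positive value in HCC70. NDRG1 had log2 fold changes of 0.41 in HCC70 and -0.70 in Hs578T (limma interaction adjusted p = 2.10e-05), and SLC2A1 had 0.30 and -0.49 (adjusted p = 3.50e-05). Of 40 interferon-stimulated genes tested in HCC70, 35 were tested in both lines. Of these 35 genes 12 fell in Hs578T, and for 16 the value was more positive in HCC70. The medians were -0.19 in Hs578T and, over the 40 genes, 0.05 in HCC70. Of 13 EMT and mesenchymal genes 8 fell in Hs578T (median -0.32), and for 6 the value was more positive in HCC70 (median 0.12). ALDH1A3 went the other way, with 1.29 in Hs578T and 0.17 in HCC70 (adjusted p = 2.10e-05). The heat shock gene HSPA6, chosen after its values were seen, fell in Hs578T (-1.32) and rose in HCC70 (0.49).

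**Figure D5:**
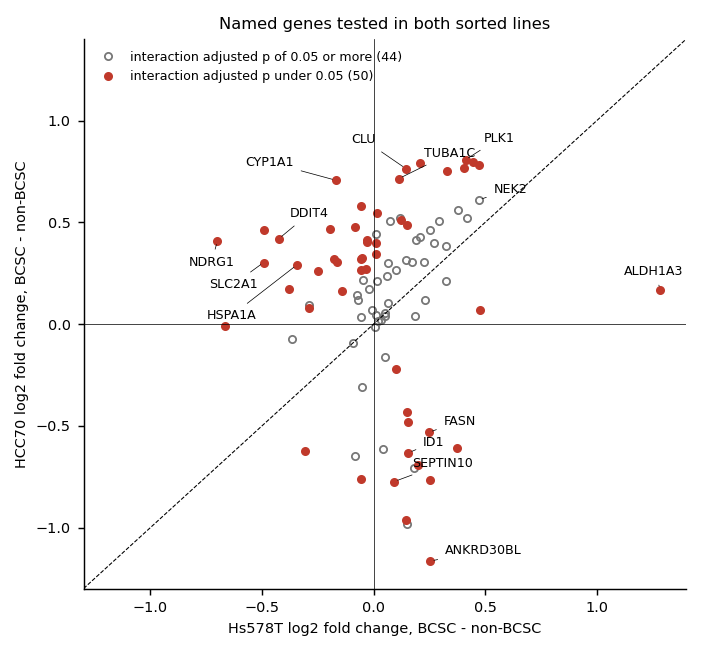
Log2 fold change, BCSCs minus non-BCSCs, in HCC70 (y axis) against Hs578T (x axis) for the 94 named genes tested in both lines; the dashed line marks equal values. Filled points are the 50 genes with an interaction adjusted p under 0.05, among them NDRG1 and SLC2A1, which were higher in HCC70 BCSCs and lower in Hs578T BCSCs, and ALDH1A3 far to the right.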

How the data were processed

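RNA levels were compared between sorted BCSCs and non-BCSCs of HCC70 (3 libraries each). Groups and replicate numbers were taken from the sample labels, and 0 sample columns of the tables of the 2 sorted lines were left unmapped. The authors aligned reads to GRCh38 and deposited TPM per gene. The submitters' processing notes name HISAT2 2.0.5 and featureCounts 1.5.0-p3. The annotation and the strand setting are not given in the sources used here. The authors' 2 tables of MDA-MB-231 were not used here.

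Whole reads were recovered from the ratios of the deposited TPM values between libraries within each gene. The recovered length of 99.2% of genes with over 300 reads was whole within 0.05 bases. Depth and reads per gene come from this step. The main test was limma 3.58.1 (R 4.3.3) with a trend on log2(TPM + 1), for genes that averaged 1 TPM or more, two-sided, with Benjamini-Hochberg adjustment over all genes tested, which is the meaning of "called", "rose" and "fell". The interaction of fraction and line was fitted on the 12 sorted libraries and compares differences within each line's table, since the tables were scaled separately. The method was tested on simulated data. Older names of 1316 genes were updated, and 17571 of 18248 were found in RefSeq or GENCODE 44, which gave biotypes, positions, GC content and exon overlaps on GRCh38.

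The members, the 47 gene lists and the tests were chosen with earlier results of these data known, and lists were described by counts and medians without set tests. Some genes that meet the rule below are not reported here. Named genes were the 12 largest rises and 12 largest falls outside the G2/M, S phase, homologous recombination and histone lists with an adjusted p under 0.05, separated groups, 10 TPM in one group and 100 reads in every library. They were joined by the 6 largest G2/M rises by the same limits, up to 4 called members of each list or else its 2 most abundant, the sort markers and genes the study names. Alternatives were a pseudocount of 0.1, no filter, a minimum of 10 TPM, median-of-ratios and quantile scaling, limma voom on recovered reads, limma without the trend, a replicate block and each library left out. Removal of each library's GC trend (loess, span 0.3) was added after seeing the data. Further software was pandas 2.3.3 and numpy 2.4.6 under Python 3.11.15, and matplotlib 3.10.9 for plots.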

Additional observations from a re-analysis of the deposited data

Results flagged for a closer look

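The effect of the BCSC fraction differed between the sorted lines in 50 of the 94 named genes tested in both, by the interaction of fraction and line in limma (adjusted p under 0.05). Line and label batch cannot be told apart. Values below are log2 differences, the HCC70 effect minus the Hs578T effect.

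Among the G2/M genes the difference was 0.40 for PLK1, 0.35 for KIF20A, 0.58 for TROAP, 0.31 for CCNB1, 0.36 for AURKA and 0.42 for KPNA2. Tubulins gave 0.64 for TUBA1B, 0.60 for TUBA1C and 0.39 for TUBB. Of the other leading rises, CLU gave 0.62, CYP1A1 0.88, ODF2 0.53 and HBEGF 0.39.

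Stress and hypoxia genes gave 0.34 for SESN2, 0.66 for DDIT3, 0.84 for DDIT4, 1.11 for NDRG1, 0.95 for ANKRD37 and 0.80 for SLC2A1. Chaperone genes gave 0.43 for HYOU1, 0.31 for SYVN1, 0.44 for DNAJB1 and 0.64 for HSPA1A. Interferon and presentation genes gave 0.47 for OAS3, 0.51 for STAT2 and 0.32 for HLA-E. Single members of other lists gave 0.37 for DUSP1, 0.55 for FTL, 0.38 for NOTCH2, 0.30 for ABCC5, 0.37 for ABCC3, 0.50 for IFT122, 0.56 for CD68 and 0.66 for COL1A1.

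Below 0 were ANKRD30BL at -1.42, MCRIP2 at -1.11, SEPTIN10 at -0.87, ZNF524 at -1.02, RHPN1 at -0.89, ID1 at -0.79 and SEMA3C at -0.31. RPS28 lay at -0.71, MVD at -0.64, FASN at -0.78, BCL7C at -0.58, H4C11 at -0.98, IGFBP3 at -0.41, PDGFRA at -0.32 and ALDH1A3 at -1.12.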

How the results depend on the processing

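The 374 calls became 178 without a filter, 232 with median-of-ratios scaling, 235 with quantile normalization, 636 by voom, 233 without the trend and 32 to 247 with 1 library left out, and they were 363 with a pseudocount of 0.1, 535 at 10 TPM and 490 with the GC trend removed. The 188 rises of other protein-coding genes became 72 without a filter, 286 at 10 TPM, 78 with median-of-ratios and 87 with quantile scaling, 99 without the trend and 2 to 85 with 1 library left out. The 54 falls became 26 without a filter, 99 at 10 TPM, 280 by voom, 133 with the GC trend removed and 6 to 51 with 1 library left out. The 83 G2/M calls became 19 to 81 with 1 library left out. The 7 ATF4 calls became 3 without a filter, 12 at 10 TPM, 3 with median-of-ratios and 4 with quantile scaling, 4 without the trend and 1 to 6 with 1 library left out. The 830 interaction calls became 291 to 1225 with 1 library left out. The cause was not tested. No called named gene changed sign, and of 100 such genes 95 kept their call with a pseudocount of 0.1, 94 by voom, 66 with quantile and 62 with median-of-ratios scaling, 63 without the trend, 51 without a filter and 17 to 71 with 1 library left out. At 10 TPM 94 of 94 did, and with the GC trend removed 81 of 99. CD24, not called by the main test, was called by voom, at 10 TPM and with the GC trend removed.

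Deviations of same-numbered libraries from their group means were little correlated (0.011, 0.185 and -0.074). These values cannot tell whether same-numbered samples came from the same culture or sort. With the replicate number as a block the counts were 128 in all, 24 rises and 18 falls of other protein-coding genes, 3 ATF4 genes and 302 interactions, and 43 of the 100 named genes were called.

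Uncalled genes near 0 changed sign, given as log2 fold changes. With the GC trend removed these were FTH1 (-0.007), IGFBP3 (-0.045), ABCC3 (-0.032), COL1A1 (0.021) and ALDH2 (-0.018). With median-of-ratios scaling these were ALCAM (-0.006) and HNRNPH1 (-0.012). With quantile normalization these were ALCAM (-0.046), IGFBP3 (-0.02), CTNNB1 (-0.022), MCL1 (-0.005), HNRNPH1 (-0.034), COL1A1 (0.014), ALDH2 (-0.003), RMRP (0.109) and CYP1B1 (-0.012). By voom these were ITGB1 (-0.011), ALCAM (-0.028), CTNNB1 (-0.016), MCL1 (-0.007), HNRNPH1 (-0.034), CD44 (-0.008) and CYP1B1 (-0.008). With 1 library left out the ranges crossed 0 for ALCAM (-0.006 to 0.062), BAX (-0.117 to 0.051), CD44 (-0.034 to 0.118), COL1A1 (-0.031 to 0.033), CYP1B1 (-0.008 to 0.077), FTH1 (-0.025 to 0.193), HNRNPH1 (-0.048 to 0.061), MCL1 (-0.015 to 0.084) and NCL (-0.023 to 0.137). Depth limits genes of few reads.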
